A study of Mus musculus with 12 samples.

Results

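The genes described here are 35 genes of glycolysis and of the cellular response to low oxygen, measured over 6 days in mouse embryonic stem (ES) cells. They were taken by symbol from a table of read counts and comprise 18 glycolytic enzymes, 4 glucose and lactate transporters, 3 regulators of glycolytic flux and 10 genes of the hypoxia response. The 35 symbols matched 36 of the 55335 rows, because Aldoa has a second row (ENSMUSG00000114515) that stayed at 0.571 to 0.910 counts per 1e6 counts (CPM) on average and was too low to test. The other 35 rows were all among the 16468 genes tested.

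Polyadenylated RNA was sequenced in 12 libraries, 3 at each of days 0, 2, 4 and 6, from a line that the labels call only mESC. The labels give every library the same usual growth conditions: medium with KnockOut Serum Replacement and LIF, a cytokine that keeps ES cells undifferentiated, on plates coated with gelatin and seeded with irradiated embryonic fibroblasts of the mouse as feeder cells. The labels give no strain, genotype or agent, no account of any change of culture after day 0, and no word on whether the libraries of a day came from separate cultures. The spread behind each p-value is that between libraries of a day, and it may be technical. Totals ran from 6945900 to 13266962 counts per library. The summed level of 6 ES cell markers (Pou5f1, Nanog, Sox2, Zfp42, Esrrb and Dppa5a) lay at 4615 to 4718 CPM at day 0, 1784 to 1818 CPM at day 2, 933 to 957 CPM at day 4 and 710.3 to 737 CPM at day 6, so the labelled cell type was marked clearly at day 0 and less at each later day, with no marker at 0. Levels below are CPM scaled by TMM factors, errors of levels are SD over the 3 libraries of a day, and fold changes are log2 values from edgeR's quasi-likelihood fit of all 12 libraries. Their SE was derived from the test, as the absolute log2 fold change over the square root of the F statistic.

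Glycolysis turns glucose into pyruvate in a chain of cytosolic steps, and lactate dehydrogenase can turn pyruvate into lactate in place of its entry into mitochondria. Most steps can be run by more than 1 gene, and the isoforms (paralogs) differ between tissues in regulation and kinetics. In low oxygen the subunit HIF-1α, encoded by Hif1a, escapes hydroxylation by the EGLN enzymes and breakdown, and with its partner ARNT it binds DNA with the core ACGTG or GCGTG. Many glycolytic genes and the hypoxia genes measured here, apart from Hif1a itself, are known HIF targets in other settings. Mouse ES cells are known for high glycolytic activity.

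Of the 18 glycolytic enzymes 17 fell by day 2 and 15 were below day 0 at day 6, while the hypoxia response genes split and most of them were higher at day 6. At day 2 against day 0, 17 of the 18 enzymes were lower and 1, Eno3, was higher, at an edgeR adjusted p under 0.05. Of all tested genes 68.1% were called in this comparison, 33.2% as lower and 34.9% as higher. In 10 enzymes the fall was at least 2-fold, as in 10.3% of all tested genes. The enzymes' median log2 fold change was -1.07, beside 0.02 over all tested genes. Of the 10 hypoxia genes 3 were higher (Hif1a, Ndrg1 and P4ha2), 6 were lower and Egln1 was not called, with a median of -0.23. None of the 10 was higher by at least 2-fold, as 11.9% of all tested genes were. With libraries scaled by their size alone, the median of all tested genes at day 2 moved up by 0.13, 61.5% of the called genes were higher in place of 51.2%, and 7 of the 35 genes were higher and 24 lower in place of 6 and 28.

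By day 4, 16 enzymes were lower than at day 0, Eno3 was higher and Tpi1 was not called, beside 36.1% of all tested genes called lower and 37.5% called higher (73.6% in either direction). Their median log2 fold change was -0.79, and 7 were lower by at least 2-fold, as were 13.1% of all tested genes. In the hypoxia list 6 genes were higher and 4 lower, with a median of 0.37. Among these, 3 (P4ha1, P4ha2 and Ndrg1) were higher by at least 2-fold, as were 16.5% of all tested genes. At day 6, 15 enzymes were lower than at day 0 and 2 were higher (Eno3 and Tpi1), with a median of -0.85, and 9 were lower by at least 2-fold. Eno2 was not called at day 6 (0.07 ± 0.072, edgeR adjusted p = 0.382). The calls of Tpi1 and of Pfkl (-0.09 ± 0.043, edgeR adjusted p = 0.0469) were lost in 12 and 13 of 22 alternatives. All tested genes were called lower in 37.5% and higher in 39.4% (76.9% in all), and lower by at least 2-fold in 13.8%. The hypoxia list then held 7 genes called higher, 2 called lower (Egln3 and Ankrd37) and Ero1l, which was not called, with a median of 0.40. P4ha1, P4ha2 and Ndrg1 were again higher by at least 2-fold, as were 18.3% of all tested genes. The 3 comparisons share the day 0 libraries and are not independent of one another. The summed ES cell markers were also lower at each of these days, at 710.3 to 737 CPM at day 6 against 4615 to 4718 CPM at day 0, and their part in the fall of the enzymes was not tested. The share of counts in the row Gm42418 also moved with the day. It was 1.41 to 1.44% at day 0, 0.322 to 0.351% at day 2, 1.51 to 1.56% at day 4 and 2.64 to 2.92% at day 6. Mitochondrially encoded genes took 1.58 to 1.63%, 1.38 to 1.45%, 2.37 to 2.54% and 1.98 to 2.01% at these days. Without these rows, a run added after seeing the data, 34, 34 and 32 of the 35 genes were called at days 2, 4 and 6 against day 0, the same numbers as with them. Within bulk RNA, fewer cells of a type and less RNA per cell cannot be told apart.

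After day 2 the enzymes moved in both directions and the hypoxia genes mostly upward. From day 2 to day 4, 9 enzymes were higher, 4 lower and 5 not called, beside 25.3% of all tested genes called higher and 24.8% called lower (50.1% in all). In the same interval 6 hypoxia genes were higher, 1 (Hif1a) lower and 3 not called, with a median log2 change of 0.43 against 0.09 for the enzymes. From day 4 to day 6, 5 enzymes were higher, 6 lower and 7 not called, and again 6 hypoxia genes were higher, 1 (Ndrg1) lower and 3 not called. The call of Ndrg1 (-0.25 ± 0.083, edgeR adjusted p = 0.0121) was lost with DESeq2 (-0.26, DESeq2 adjusted p = 0.0818), without day 4 replicate 1 (-0.20, edgeR adjusted p = 0.0939) and without day 6 replicate 3 (-0.22, edgeR adjusted p = 0.0542). Over all tested genes 23.6% were called higher and 19.3% lower in that interval (42.9% in all). An F-test over the 4 days called all 35 genes, where it called 89.2% of all tested genes. The difference between the enzyme list and the hypoxia list was not tested as such.

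**Figure D1:**
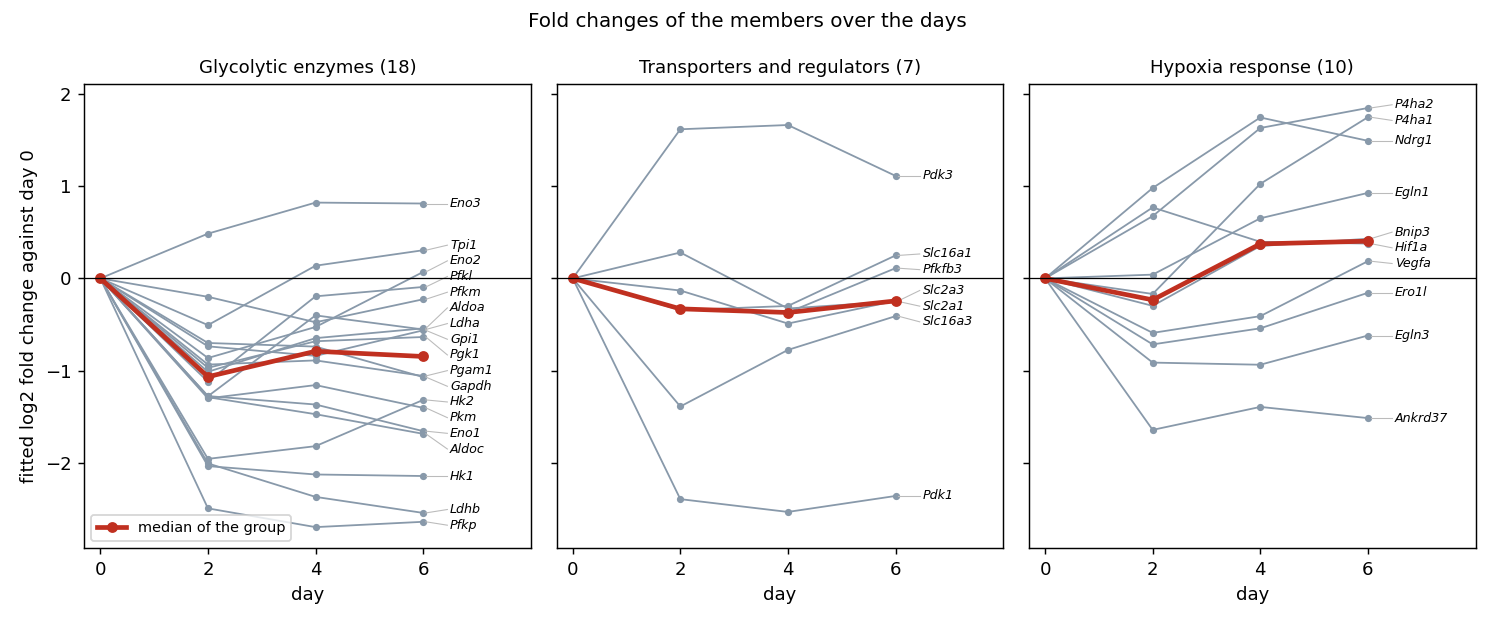
Fitted log2 fold change against day 0 (y axis) by day (x axis) for the 18 glycolytic enzymes, the 7 transporters and regulators, and the 10 hypoxia response genes; each grey line is 1 gene, named at its right end, and the red line is the median of the group. The enzyme median sits at -1.07, -0.79 and -0.85 at days 2, 4 and 6, and the hypoxia median at -0.23, 0.37 and 0.40.

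**Figure D2:**
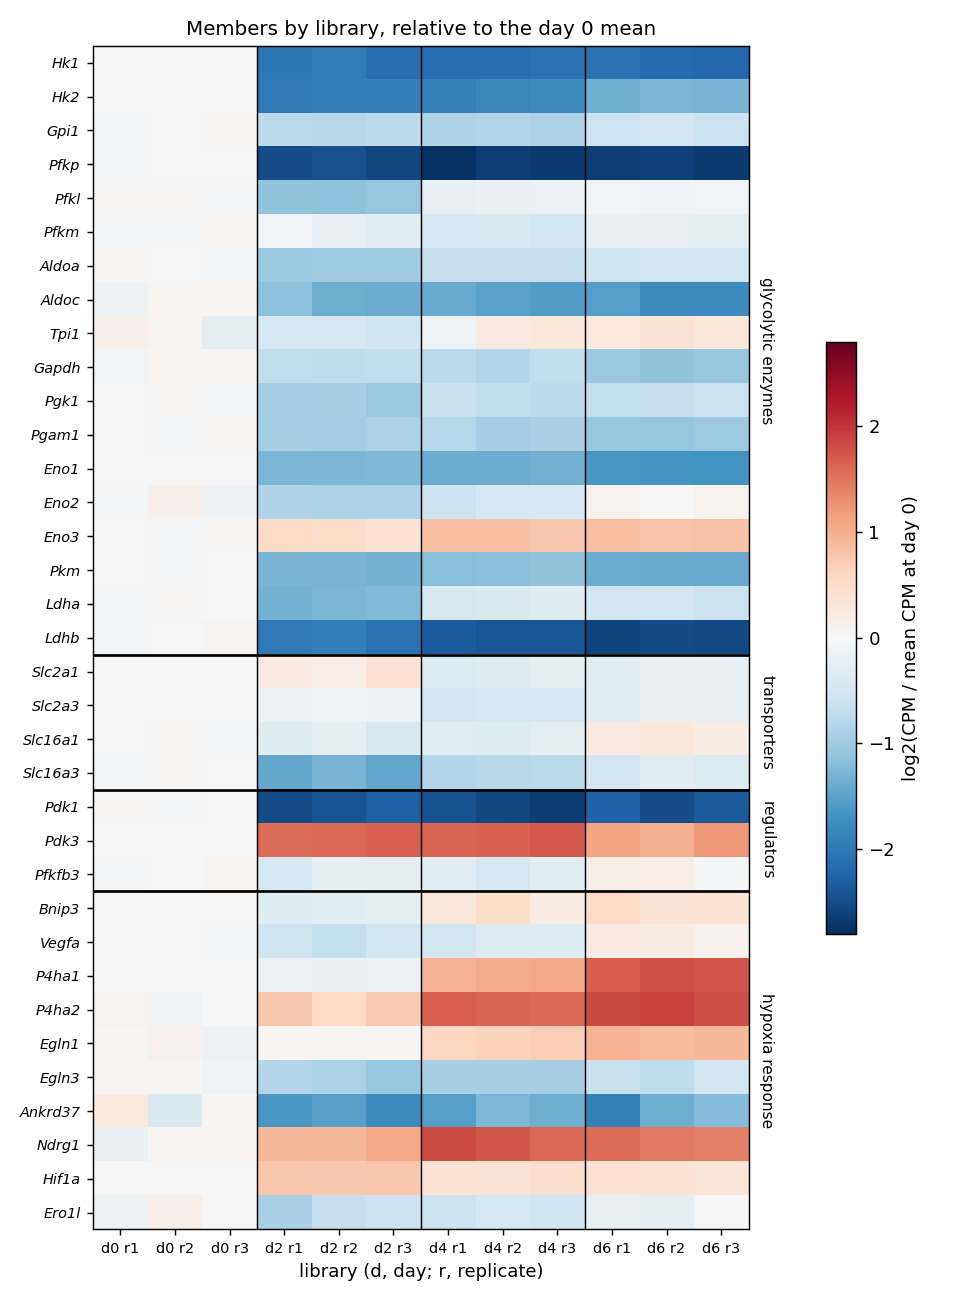
Level of each of the 35 genes (rows, by list) in each of the 12 libraries (columns, by day) as log2 of its CPM over its mean CPM at day 0; red is above and blue below that mean. Of the 18 enzymes, 15 were lower at day 6, and the reddest rows are P4ha1, P4ha2, Ndrg1 and Pdk3.

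Per kb of merged annotated exon, the enzyme gene with the highest level at day 0 was Pkm, pyruvate kinase, at 785 ± 17.05 CPM per kb. Aldoa (502 ± 14.2 CPM per kb) and Pgk1 (382 ± 11.9 CPM per kb) came next. Ldha (248 ± 7.03) and Ldhb (231 ± 9.99) followed on the same scale, then Gapdh (193 ± 9.85) and Eno1 (177 ± 0.850). This order depends on the merged lengths, which can exceed those of the transcripts present. Without division by length, Eno1 (951 CPM) and Gapdh (796 CPM) were above Ldhb (363 CPM) at day 0. At day 6 Aldoa came first at 345 ± 5.54 CPM per kb, ahead of Pkm at 297 ± 3.58 and Pgk1 at 246 ± 5.93, and Ldhb was at 39.8 ± 1.15. Together the 18 enzymes took 1.08 to 1.09% of all counts in the day 0 libraries, 0.521 to 0.530% at day 2, 0.613 to 0.622% at day 4 and 0.574 to 0.584% at day 6.

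Hexokinases phosphorylate glucose as it enters the cell, and both major isoforms were down by about the same fold at day 2. Hk1 was measured at 265, 272 and 269.7 CPM at day 0 and at 65.9, 69.1 and 61.5 CPM at day 2. Hk1 then stood at 61.1, 61.0 and 62.9 CPM at day 4 and at 64.0, 59.1 and 58.9 CPM at day 6. The day 0 libraries lie far above all 9 later ones, and days 2, 4 and 6 overlap from 1 day to the next. The log2 fold change of Hk1 was -2.04 ± 0.048 (SE, edgeR adjusted p = 7.17e-31) at day 2 and -2.14 ± 0.049 (SE, edgeR adjusted p = 9.45e-32) at day 6. Hk2 was measured at 205, 204 and 199.6 CPM at day 0 and at 50.5, 53.5 and 52.7 CPM at day 2. Hk2 then stood at 54.9, 58.3 and 59.5 CPM at day 4 and at 78.2, 83.4 and 82.8 CPM at day 6. Hk2, the isoform more responsive to insulin and HIF, had its lowest libraries at day 2 and partly recovered without overlap between days. Its log2 fold change was -1.96 ± 0.049 (SE, edgeR adjusted p = 4.16e-30) at day 2, -1.32 ± 0.047 (SE, edgeR adjusted p = 2.53e-25) at day 6 against day 0, and 0.50 ± 0.053 (SE, edgeR adjusted p = 4.74e-10) between days 4 and 6. Between days 2 and 4 its rise of 0.14 ± 0.055 (SE, edgeR adjusted p = 0.0351) lost its call in 7 of 22 alternative analyses.

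Within each library, the log2 ratio of Hk2 to Hk1 counts was -0.41 ± 0.030 at day 0, -0.33 ± 0.088 at day 2, -0.10 ± 0.048 at day 4 and 0.43 ± 0.12 at day 6, a measure in which depth and scaling cancel. It differed over the days (adjusted p = 0.000195, exact permutation test over all 369600 assignments of the libraries to days, two-sided, adjusted over 12 ratios). Days 0 and 2 overlapped and the later days did not. The third contributor was Hkdc1, a hexokinase domain containing gene that lies next to Hk1 (chr10:62383137-62422491 and chr10:62268855-62379908, GRCm38, both on the minus strand). Hkdc1 stood at 10.997 ± 0.860 CPM at day 0, 20.5 ± 0.571 CPM at day 2, 89.0 ± 4.71 CPM at day 4 and 116 ± 8.48 CPM at day 6, a log2 fold change of 3.39 ± 0.079 (SE, edgeR adjusted p = 1.19e-31) at day 6. On the per kb scale its share of the sum of Hk1, Hk2, Hk3 and Hkdc1 was 3.17% ± 0.244 at day 0, 19.5% ± 0.799 at day 2, 50.6% ± 1.30 at day 4 and 52.1% ± 1.65 at day 6. At day 6 Hk2 held 31.4% ± 0.764 and Hk1 16.4% ± 1.36 of that sum, against 50.2% ± 0.450 and 46.6% ± 0.573 at day 0.

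Gpi1, which converts glucose 6-phosphate to fructose 6-phosphate, was at 553 ± 13.3 CPM at day 0, 332 ± 5.75 CPM at day 2, 309 ± 3.93 CPM at day 4 and 375 ± 11.9 CPM at day 6. It was lower at day 2 by a log2 fold change of -0.74 ± 0.042 (SE, edgeR adjusted p = 1.93e-18) and rose again between days 4 and 6 (0.28 ± 0.043, edgeR adjusted p = 1.32e-06). The small fall between days 2 and 4 (-0.10 ± 0.043, edgeR adjusted p = 0.0408) lost its call in 10 of 22 alternatives.

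Phosphofructokinase makes fructose 1,6-bisphosphate at the main control step, from platelet (Pfkp), liver (Pfkl) and muscle (Pfkm) type subunits. The platelet type fell most and the liver type came back. Pfkp was measured at 417, 430.1 and 429.7 CPM at day 0 and at 76.5, 76.8 and 73.3 CPM at day 2. Pfkp then stood at 62.6, 68.0 and 66.4 CPM at day 4 and at 68.8, 69.3 and 66.7 CPM at day 6. The 9 libraries of days 2 to 6 lie far below day 0, and those of day 4 lie below those of day 2 without overlap. Pfkp (chr13:6579768-6648777, GRCm38) fell 5.63-fold at day 2, a log2 fold change of -2.49 ± 0.045 (SE, edgeR adjusted p = 1.54e-34), the largest fall at day 2 among the 35 genes. Pfkl was measured at 354, 354 and 333 CPM at day 0 and at 158, 156 and 164 CPM at day 2. Pfkl then stood at 295, 303 and 311 CPM at day 4 and at 330.0, 318 and 327 CPM at day 6. Only day 2 is far from the rest, and its libraries do not overlap those of any other day. Pfkl fell by a log2 fold change of -1.12 ± 0.044 (SE, edgeR adjusted p = 1.43e-23) and rose by 0.92 ± 0.044 (SE, edgeR adjusted p = 3.03e-20) from day 2 to day 4. At day 6 its log2 fold change against day 0 was -0.09 ± 0.043 (SE, edgeR adjusted p = 0.0469), a call lost in 13 of 22 alternatives, in 1 of which (scaling by library size alone) it turned positive. Pfkm was measured at 69.6, 69.7 and 73.9 CPM at day 0 and at 67.1, 60.9 and 57.3 CPM at day 2. Pfkm then stood at 51.5, 52.4 and 49.0 CPM at day 4 and at 61.8, 60.6 and 59.6 CPM at day 6. Pfkm fell little at day 2 (-0.20 ± 0.058, edgeR adjusted p = 0.00262, a call lost under scaling by library size alone) and was lowest at day 4 (-0.48 ± 0.062, edgeR adjusted p = 9.01e-09).

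The log2 ratio of Pfkp to Pfkl counts was 0.30 ± 0.066 at day 0, -1.08 ± 0.073 at day 2, -2.21 ± 0.046 at day 4 and -2.25 ± 0.049 at day 6 (adjusted p = 0.000312, exact permutation test). Pfkp thus had more counts than Pfkl at day 0 and 0.210 times as many at day 6. The ratio of Pfkm to Pfkl was highest at day 2, at -1.37 ± 0.14, against -2.28 ± 0.10 at day 0 and -2.42 ± 0.033 at day 6 (adjusted p = 0.000156, exact permutation test). On the per kb scale, Pfkp made up 30.3% ± 0.574 of the 3 transcripts at day 0 and 7.09% ± 0.187 at day 6. Pfkl made up 49.5% ± 1.37 at day 0 and 67.7% ± 0.547 at day 6.

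Aldolase splits fructose 1,6-bisphosphate, and Aldoa was far more abundant than Aldoc at every day. Aldoa was measured at 1492, 1478 and 1415 CPM at day 0 and at 712, 732 and 729 CPM at day 2. Aldoa then stood at 934, 934 and 931 CPM at day 4 and at 989, 1021 and 1002 CPM at day 6. Aldoa was lowest at day 2 and climbed back part of the way, with a log2 fold change of -1.01 ± 0.042 (SE, edgeR adjusted p = 5.49e-23) at day 2 and -0.54 ± 0.041 (SE, edgeR adjusted p = 6.9e-15) at day 6. Aldoc was measured at 38.6, 44.5 and 44.4 CPM at day 0 and at 19.2, 16.5 and 16.2 CPM at day 2. Aldoc then stood at 16.1, 15.1 and 14.5 CPM at day 4 and at 14.5, 12.3 and 12.3 CPM at day 6. Aldoc, the isoform known from brain, fell and stayed down, with libraries of days 4 and 6 overlapping and a log2 fold change of -1.69 ± 0.091 (SE, edgeR adjusted p = 2.01e-19) at day 6. The log2 ratio of Aldoc to Aldoa went from -5.10 ± 0.15 at day 0 to -6.27 ± 0.16 at day 6 (adjusted p = 0.000195, exact permutation test), with days 0 and 2 overlapping. Aldoa held 97.5% ± 0.244 of the sum of Aldoa and Aldoc per kb at day 0 and 98.8% ± 0.126 at day 6.

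Downstream of aldolase, Gapdh and Pgam1 stayed low, Pgk1 recovered in part and Tpi1 was low at day 2 alone. Triose phosphate isomerase (Tpi1) was at 203 ± 28.1 CPM at day 0, 143 ± 4.50 CPM at day 2, 224 ± 33.9 CPM at day 4 and 251 ± 9.96 CPM at day 6. On the log2 scale it was lower at day 2 (-0.51 ± 0.13, edgeR adjusted p = 0.00632), not called at day 4, where its libraries overlap those of day 0, and higher at day 6 (0.31 ± 0.12, edgeR adjusted p = 0.0492). That last call was lost in 12 of 22 alternatives, and without day 4 replicate 1, the lowest of its day, Tpi1 was called higher at day 4 as well (0.27 on the log2 scale, edgeR adjusted p = 0.0123). Gapdh, often used as a reference gene for normalisation, was at 796 ± 40.7 CPM at day 0, 489.6 ± 5.74 CPM at day 2, 477 ± 22.8 CPM at day 4 and 379 ± 10.9 CPM at day 6. On the log2 scale it changed by -0.70 ± 0.045 (SE, edgeR adjusted p = 7.56e-17) at day 2 and -1.07 ± 0.046 (SE, edgeR adjusted p = 8.49e-23) at day 6, so its day 6 level was below its day 0 level by 2.099-fold. Pgk1, the first step that yields ATP, was at 857 ± 26.8 CPM at day 0, 438 ± 16.9 CPM at day 2, 534 ± 17.3 CPM at day 4 and 552 ± 13.3 CPM at day 6, with a log2 fold change of -0.97 ± 0.044 (SE, edgeR adjusted p = 1.24e-21) at day 2 and a rise of 0.29 ± 0.044 (SE, edgeR adjusted p = 7.41e-07) from day 2 to day 4. Pgam1, which moves the phosphate of phosphoglycerate, was at 213 ± 4.83 CPM at day 0, 112 ± 3.50 CPM at day 2, 115 ± 6.43 CPM at day 4 and 102 ± 2.14 CPM at day 6, with a log2 fold change of -0.93 ± 0.046 (SE, edgeR adjusted p = 2.04e-20) at day 2 and no call between days 2 and 4. Gapdh, Tpi1, Ldha and Eno1 have near-identical copies elsewhere in the genome, and how reads with several positions were counted is not given in the sources used here, so their levels are uncertain to that extent.

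Enolase makes phosphoenolpyruvate, and its 3 classical genes moved apart. Eno1 was measured at 956, 951 and 947 CPM at day 0 and at 389, 392 and 397 CPM at day 2. Eno1 then stood at 365, 364 and 377 CPM at day 4 and at 307, 302 and 297 CPM at day 6. Eno1, the ubiquitous form, dropped at day 2 and again at day 6, with no overlap between any neighbouring days. The log2 fold changes were -1.28 ± 0.041 (SE, edgeR adjusted p = 1.56e-26) at day 2 and -1.66 ± 0.042 (SE, edgeR adjusted p = 1.93e-30) at day 6. Eno2 was measured at 36.8, 41.7 and 34.0 CPM at day 0 and at 21.1, 20.2 and 20.6 CPM at day 2. Eno2 then stood at 24.6, 26.6 and 27.1 CPM at day 4 and at 39.95, 38.0 and 39.9 CPM at day 6. Eno2, the form known from neurons, returned at day 6 to the range of the day 0 libraries (0.07 ± 0.072, edgeR adjusted p = 0.382) after a log2 change of -0.86 ± 0.078 (SE, edgeR adjusted p = 1.75e-12) at day 2. Eno3 was measured at 16.95, 16.5 and 17.3 CPM at day 0 and at 24.8, 23.8 and 22.5 CPM at day 2. Eno3 then stood at 30.6, 30.5 and 28.4 CPM at day 4 and at 30.2, 29.3 and 29.7 CPM at day 6. Eno3, the form known from muscle, was the 1 enzyme that was higher at every later day, with log2 fold changes of 0.49 ± 0.085 (SE, edgeR adjusted p = 4.21e-06) at day 2 and 0.81 ± 0.084 (SE, edgeR adjusted p = 2.99e-11) at day 6.

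Within libraries, the log2 ratio of Eno3 to Eno1 rose from -5.81 ± 0.037 at day 0 to -4.05 ± 0.086 at day 2 and -3.34 ± 0.025 at day 6, a change of 2.46 ± 0.026 (SE) by day 6. Eno2 to Eno1 went from -4.67 ± 0.15 to -2.94 ± 0.049, with a change of 0.88 ± 0.046 (SE) between days 4 and 6. Both had an adjusted p of 0.000156 (exact permutation test), the value that belongs to the smallest p these assignments can give, and no neighbouring days overlapped in either. On the per kb scale Eno1 stayed the largest enolase, at 61.8% ± 0.801 of the family at day 0 and 49.8% ± 1.04 at day 6, while Eno3 went from 3.40% ± 0.131 to 15.2% ± 0.431. Eno1b, a retrocopy of Eno1, carried 31.8% ± 0.643 at day 0 and 27.3% ± 1.61 at day 6, and reads of the pair cannot be assigned with certainty. With Eno1 and Eno1b summed, the change of the Eno3 ratio by day 6 was 2.45. The summed level of 6 neural markers was 82.2 to 89.4 CPM at day 0, 83.7 to 84.8 CPM at day 2, 101 to 109 CPM at day 4 and 116 to 130.2 CPM at day 6, with Dcx at 0 at day 0. Its members went in different directions. Between days 0 and 2 Tubb3 went from 45.9 ± 1.98 CPM to 10.3 ± 1.56 CPM. Over the same days Pax6 went from 1.81 ± 0.935 CPM to 19.5 ± 0.522 CPM and Sox1 from 12.7 ± 0.580 CPM to 23.3 ± 1.10 CPM. Sox1 fell after that, with unscaled counts per day of 309, 850, 346 and 166 at days 0, 2, 4 and 6. Nes was at 20.04 ± 2.15 CPM at day 0 and 63.5 ± 4.23 CPM at day 6. The 7 markers of striated and cardiac muscle summed to 35.1 to 38.2 CPM at day 0, 18.7 to 23.4 CPM at day 2, 17.2 to 19.0 CPM at day 4 and 13.3 to 15.0 CPM at day 6, with Ckm and Myod1 at 0 at day 2 and Myog at day 4. The part of neural cells in the Eno2 and Aldoc levels and of muscle cells in the Eno3 and Pfkm levels was not tested.

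Pyruvate kinase (Pkm) closes the pathway and was at 3926 ± 85.2 CPM at day 0, 1594 ± 12.9 CPM at day 2, 1761 ± 42.0 CPM at day 4 and 1484 ± 17.9 CPM at day 6. Its log2 fold change was -1.30 ± 0.042 (SE, edgeR adjusted p = 2.2e-26) at day 2 and -1.40 ± 0.042 (SE, edgeR adjusted p = 8.22e-28) at day 6, with changes of 0.14 ± 0.042 (SE, edgeR adjusted p = 0.00394) from day 2 to day 4 and -0.25 ± 0.042 (SE, edgeR adjusted p = 6.88e-06) from day 4 to day 6. The counts are per gene and do not separate its splice forms. Of the exon length of Pkm 15.3% overlaps another gene on the same strand, so that part of its counts cannot be assigned with certainty.

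Lactate dehydrogenase is built from A subunits (Ldha), known for turning pyruvate to lactate, and B subunits (Ldhb), known for the reverse. The A gene recovered in part from day 2 to day 4 and the B gene did not. Ldha was measured at 794, 839 and 828 CPM at day 0 and at 330.3, 338 and 347 CPM at day 2. Ldha then stood at 599, 615 and 651 CPM at day 4 and at 562, 572 and 541 CPM at day 6. Day 2 is the lowest and day 0 the highest, with days 4 and 6 between them and day 6 below day 4 without overlap. Ldha fell by a log2 fold change of -1.28 ± 0.044 (SE, edgeR adjusted p = 2e-25) at day 2, rose by 0.88 ± 0.044 (SE, edgeR adjusted p = 1.65e-19) to day 4 and remained below day 0 at day 6 (-0.55 ± 0.043, edgeR adjusted p = 1.66e-14). Ldhb was measured at 351, 358 and 381 CPM at day 0 and at 90.8, 94.6 and 85.7 CPM at day 2. Ldhb then stood at 72.0, 69.4 and 69.4 CPM at day 4 and at 60.4, 63.6 and 63.4 CPM at day 6. Each later day lies below the day before, with no overlap, down to a log2 fold change of -2.54 ± 0.049 (SE, edgeR adjusted p = 2.78e-34) or 5.83-fold lower at day 6. Expressed as a log2 ratio, Ldhb to Ldha was -1.18 ± 0.054 at day 0, -1.91 ± 0.10 at day 2, -3.14 ± 0.087 at day 4 and -3.16 ± 0.063 at day 6 (adjusted p = 0.000519, exact permutation test), with days 4 and 6 overlapping. Per kb, Ldhb was 48.1% ± 0.926 of the lactate dehydrogenase transcripts at day 0, beside Ldha at 51.5% ± 0.941, and 18.9% ± 0.621 at day 6. The day 0 shares depend on the merged exon lengths used, 3310 bases for Ldha and 1570 for Ldhb. In counts, Ldhb was at 0.443 times Ldha at day 0.

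**Figure D3:**
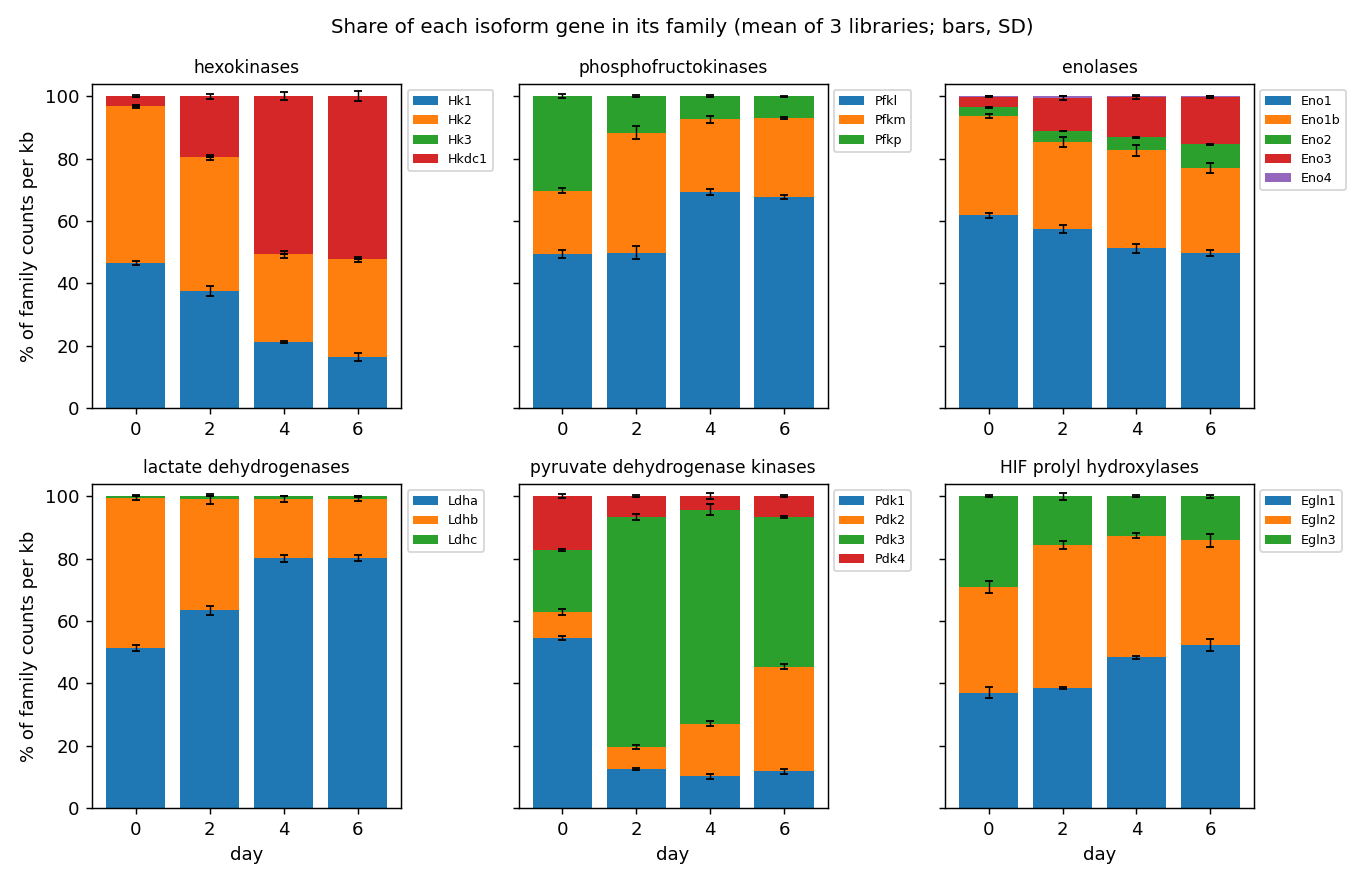
Share (y axis, percent) of each paralog in the summed level per kb of the genes drawn in its panel by day (x axis), stacked, as the mean of 3 libraries with SD as error bars. Hkdc1 grows from 3.17% to 52.1% of the sum of the 4 hexokinase genes drawn, Pdk1 shrinks from 54.7% to 11.8% of the pyruvate dehydrogenase kinases, and Ldhb shrinks from 48.1% to 18.9% of the lactate dehydrogenases.

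The 4 transporters had median log2 fold changes of -0.24, -0.41 and -0.25 at days 2, 4 and 6, beside -1.07, -0.79 and -0.85 for the enzymes. At day 2, 1 of 4 was higher and 3 lower than at day 0. At day 4 all 4 were lower, and at day 6, 1 was higher and 3 lower. Of all tested genes 34.9% were called higher and 33.2% lower at day 2, and 37.5% higher and 36.1% lower at day 4. At day 6 the shares were 39.4% and 37.5%. Slc2a1 was measured at 212, 213 and 217 CPM at day 0 and at 252, 246 and 284 CPM at day 2. Slc2a1 then stood at 164, 169 and 181 CPM at day 4 and at 175, 184 and 183 CPM at day 6. Slc2a1 encodes GLUT1, the basal glucose carrier, and was highest at day 2 and lower at days 4 and 6. Against day 0 its log2 fold change was 0.28 ± 0.049 (SE, edgeR adjusted p = 3.4e-06) at day 2, -0.33 ± 0.051 (SE, edgeR adjusted p = 3.68e-07) at day 4 and -0.25 ± 0.050 (SE, edgeR adjusted p = 2.56e-05) at day 6. Slc2a3 was measured at 476, 469 and 483 CPM at day 0 and at 429, 443 and 431 CPM at day 2. Slc2a3 then stood at 330.5, 341 and 346 CPM at day 4 and at 387, 410.1 and 409 CPM at day 6. Slc2a3 encodes GLUT3, a carrier of high affinity, and was lowest at day 4, at -0.49 ± 0.043 (SE, edgeR adjusted p = 3.99e-13) on the log2 scale against day 0. Its small fall at day 2 (-0.13 ± 0.042, edgeR adjusted p = 0.00564) lost its call in 2 of 22 alternatives and its sign under scaling by library size alone. Slc2a3 to Slc2a1, as a log2 ratio of counts, dipped from 1.15 ± 0.013 at day 0 to 0.74 ± 0.13 at day 2 and was 1.15 ± 0.0078 at day 6, where the libraries overlap those of day 0 (adjusted p over the days = 0.000496, exact permutation test).

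Lactate leaves and enters cells through monocarboxylate transporters, of which MCT1 (Slc16a1) is widespread and MCT4 (Slc16a3) is known from strongly glycolytic cells and as a HIF target. Slc16a1 was measured at 205, 207 and 198 CPM at day 0 and at 161, 169.5 and 149 CPM at day 2. Slc16a1 then stood at 164, 160.1 and 172 CPM at day 4 and at 241, 249.6 and 234 CPM at day 6. Slc16a1 libraries of day 6 are above those of all other days, with a log2 fold change of 0.25 ± 0.047 (SE, edgeR adjusted p = 9.96e-06) against day 0 and 0.55 ± 0.047 (SE, edgeR adjusted p = 2.34e-12) against day 4. Slc16a3 was measured at 80.5, 86.5 and 85.0 CPM at day 0 and at 31.0, 34.3 and 30.7 CPM at day 2. Slc16a3 then stood at 47.9, 49.4 and 49.97 CPM at day 4 and at 57.7, 68.8 and 64.1 CPM at day 6. Slc16a3 fell to its lowest at day 2 (-1.39 ± 0.065, edgeR adjusted p = 3.28e-21) and rose over each later interval without reaching day 0 (-0.41 ± 0.060, edgeR adjusted p = 1.18e-07). The log2 ratio of Slc16a3 to Slc16a1 was -1.27 ± 0.068 at day 0, -2.32 ± 0.051 at day 2, -1.75 ± 0.047 at day 4 and -1.93 ± 0.12 at day 6 (adjusted p = 0.000156, exact permutation test). Bsg, the chaperone that brings both lactate carriers to the membrane, was at 784 ± 32.7 CPM at day 0 and 1271 ± 34.6 CPM at day 6, a log2 fold change of 0.70 ± 0.044 (SE, edgeR adjusted p = 3.32e-17).

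Pyruvate dehydrogenase kinases phosphorylate and switch off the enzyme that sends pyruvate into mitochondrial oxidation, and the most abundant of them per kb was Pdk1 at day 0 and Pdk3 from day 2 on. Pdk1 was measured at 150.3, 143 and 149 CPM at day 0 and at 26.4, 27.8 and 30.2 CPM at day 2. Pdk1 then stood at 27.4, 25.2 and 23.4 CPM at day 4 and at 30.7, 26.2 and 28.8 CPM at day 6. All 9 later libraries lie in a narrow range, and Pdk1 (chr2:71873224-71903858) fell 5.25-fold at day 2, a log2 fold change of -2.39 ± 0.061 (SE, edgeR adjusted p = 7.59e-30). Pdk3 was measured at 17.7, 17.6 and 17.6 CPM at day 0 and at 52.3, 54.0 and 56.3 CPM at day 2. Pdk3 then stood at 54.6, 55.2 and 58.3 CPM at day 4 and at 38.2, 34.997 and 41.2 CPM at day 6. Pdk3 (chrX:93764607-93832201) is at its highest at days 2 and 4, whose libraries overlap, and in between at day 6. Its log2 fold change was 1.62 ± 0.075 (SE, edgeR adjusted p = 3.58e-21) at day 2, 1.66 ± 0.077 (SE, edgeR adjusted p = 1.88e-21) at day 4 and 1.11 ± 0.080 (SE, edgeR adjusted p = 1.56e-15) at day 6. Pdk3 to Pdk1, as a log2 ratio of counts, was -3.06 ± 0.033 at day 0, 0.95 ± 0.043 at day 2, 1.15 ± 0.16 at day 4 and 0.41 ± 0.10 at day 6. The change of 4.00 ± 0.032 (SE) from day 0 to day 2 was the largest such change among the 12 ratios (adjusted p over the days = 0.000156, exact permutation test).

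Per kb, Pdk1 held 54.7% ± 0.685 at day 0, 12.6% ± 0.362 at day 2, 10.2% ± 0.889 at day 4 and 11.8% ± 0.808 at day 6 of the 4 kinase transcripts. Pdk3 held 19.9% ± 0.264 at day 0, 73.6% ± 0.862 at day 2, 68.6% ± 1.73 at day 4 and 47.9% ± 0.331 at day 6. Pdk2, a further kinase of the family, grew late, from 7.10% ± 0.623 at day 2 to 33.5% ± 0.750 at day 6. Pfkfb3 was measured at 16.0, 16.5 and 17.5 CPM at day 0 and at 12.05, 13.7 and 14.1 CPM at day 2. Pfkfb3 then stood at 13.5, 12.01 and 13.3 CPM at day 4 and at 18.6, 18.9 and 16.4 CPM at day 6. Pfkfb3 makes fructose 2,6-bisphosphate, the activator of phosphofructokinase, and had low counts. It was lower at day 2 (-0.33 ± 0.10, edgeR adjusted p = 0.00436) and day 4 (-0.37 ± 0.11, edgeR adjusted p = 0.00236) and overlapped day 0 at day 6 (0.11 ± 0.10, edgeR adjusted p = 0.307).

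**Figure D4:**
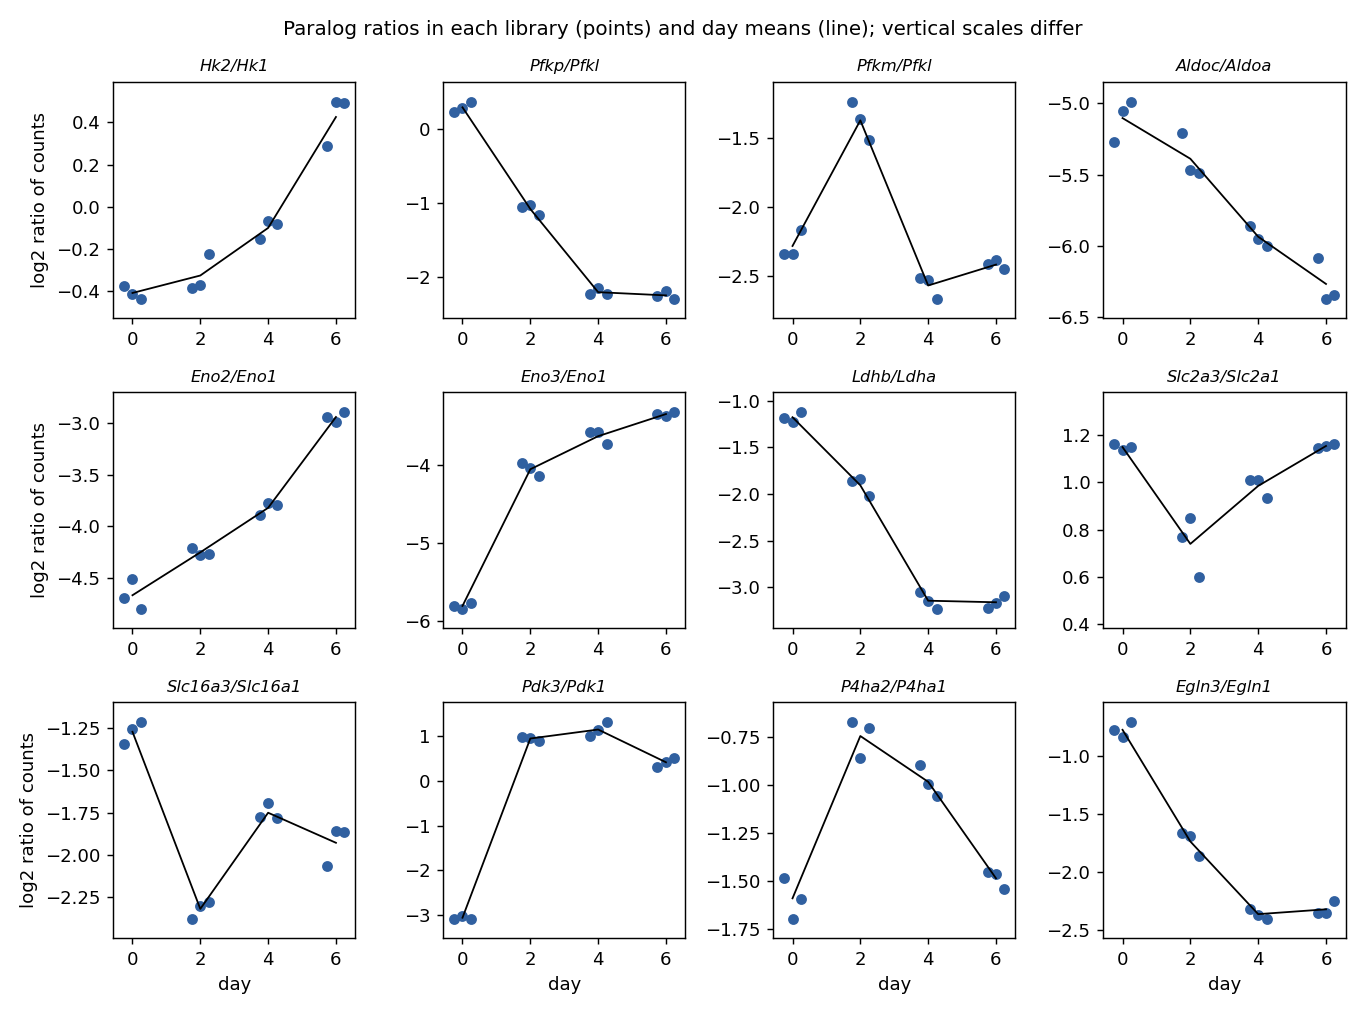
Log2 ratio of the counts of 2 paralogs (y axis) in each of the 12 libraries (points) by day (x axis) for the 12 pairs, with lines through the day means. The ratio of Pdk3 to Pdk1 moves from -3.06 at day 0 to 0.95 at day 2, Ldhb to Ldha goes down to -3.16 at day 6, and Slc2a3 to Slc2a1 is at 1.15 at both day 0 and day 6.

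Promoter sequences are shown for 6 members with many copies of the HIF core motif, to set the letters of enzymes that fell beside those of hypoxia genes that rose or fell. ACGTG and GCGTG were searched on both strands in the 250 bases before each RefSeq transcription start (assembly GRCm38.p6); capitals mark matches, the reverse strand reading CACGT or CACGC, and a CACGTG counts once on each strand. Bnip3 (chr7:138909507-138909756, minus strand), Ankrd37 (chr8:45999851-46000100, minus strand) and Ldha (chr7:46845554-46845803, plus strand) have 5, 4 and 5 matches, the highest counts of the hypoxia list and of the enzymes. For a gene with several promoters the one with most matches was taken, and the other promoter of Ldha (chr7:46846832-46847081) has 1. P4ha1 (chr10:59323046-59323295, plus strand), P4ha2 (chr11:54100674-54100923, plus strand) and Pfkp (chr13:6648772-6649021, minus strand) have 3 matches each and were picked from ties after their values were seen. The ties passed over were Ero1l and Hif1a of the hypoxia list and Hk1 and Pgam1 of the enzymes. Each sequence is written 5′ to 3′ on the strand of its gene and ends at the base before the start.
Bnip3: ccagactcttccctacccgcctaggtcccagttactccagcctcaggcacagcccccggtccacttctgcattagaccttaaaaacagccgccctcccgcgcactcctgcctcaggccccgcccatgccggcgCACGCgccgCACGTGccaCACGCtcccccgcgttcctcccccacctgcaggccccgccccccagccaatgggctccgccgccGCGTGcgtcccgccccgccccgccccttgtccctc
Ankrd37: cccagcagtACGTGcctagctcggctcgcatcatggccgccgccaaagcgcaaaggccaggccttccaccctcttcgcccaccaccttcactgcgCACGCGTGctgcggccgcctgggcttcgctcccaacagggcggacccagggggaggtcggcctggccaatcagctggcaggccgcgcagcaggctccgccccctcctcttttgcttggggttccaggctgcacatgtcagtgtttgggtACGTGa
P4ha1: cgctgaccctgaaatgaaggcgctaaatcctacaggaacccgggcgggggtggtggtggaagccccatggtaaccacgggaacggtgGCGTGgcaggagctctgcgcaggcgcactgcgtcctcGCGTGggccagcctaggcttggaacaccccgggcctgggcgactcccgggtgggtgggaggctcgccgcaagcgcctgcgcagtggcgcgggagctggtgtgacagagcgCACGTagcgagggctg
P4ha2: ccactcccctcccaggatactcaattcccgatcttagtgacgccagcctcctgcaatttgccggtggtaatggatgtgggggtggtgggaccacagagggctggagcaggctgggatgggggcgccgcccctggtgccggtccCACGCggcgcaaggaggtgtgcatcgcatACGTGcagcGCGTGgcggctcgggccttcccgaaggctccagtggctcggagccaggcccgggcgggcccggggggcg
Ldha: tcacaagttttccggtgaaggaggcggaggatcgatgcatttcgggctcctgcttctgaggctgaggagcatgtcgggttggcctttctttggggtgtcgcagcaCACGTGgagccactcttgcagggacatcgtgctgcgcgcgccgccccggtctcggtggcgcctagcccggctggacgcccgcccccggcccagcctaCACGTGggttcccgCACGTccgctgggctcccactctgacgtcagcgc
Pfkp: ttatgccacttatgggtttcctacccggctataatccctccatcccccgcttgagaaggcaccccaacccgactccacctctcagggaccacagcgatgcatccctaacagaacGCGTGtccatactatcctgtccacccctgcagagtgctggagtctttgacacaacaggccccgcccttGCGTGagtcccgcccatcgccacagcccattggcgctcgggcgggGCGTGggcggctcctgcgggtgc

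At least 1 match was present in 38 of the 47 promoters found for 33 of the 35 symbols (80.9%), in 22 of 29 enzyme promoters (75.9%) and in 9 of 10 promoters of the hypoxia list (90.0%). These are counts of promoters and not of genes. No promoter was found for Ndrg1 and Slc2a3, and 10 symbols, Vegfa among them, had more than 1. Some stretches of the same gene overlap, as for Eno1, and share their matches. Among all 32851 RefSeq promoters of this length 38.6% had at least 1, and among 14578 promoters of tested genes 54.6%. At least 3 matches were present in 6 of 10 hypoxia promoters (60.0%) and 4 of 29 enzyme promoters (13.8%), against 11.3% of the promoters of tested genes. Of the 6 promoters printed, those of Ldha, Pfkp and Ankrd37 belong to genes that were lower at day 6 than at day 0, and those of Bnip3, P4ha1 and P4ha2 to genes that were higher. Since Pfkp, P4ha1 and P4ha2 were picked with their values known, this split says nothing about matches and direction. A match is a description of the letters and not a site of binding.

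The oxygen sensing genes of the hypoxia list include HIF-1α itself. Hif1a was at 98.1 ± 0.465 CPM at day 0, 167 ± 1.73 CPM at day 2, 129 ± 4.62 CPM at day 4 and 127 ± 2.47 CPM at day 6, highest in the 3 day 2 libraries. It was higher by a log2 fold change of 0.77 ± 0.045 (SE, edgeR adjusted p = 6.04e-18) at day 2 and 0.38 ± 0.047 (SE, edgeR adjusted p = 2.87e-09) at day 6, with a change of -0.37 ± 0.044 (SE, edgeR adjusted p = 3.01e-09) from day 2 to day 4. HIF-1α is known to be set mainly at the protein level, which was not measured here.

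Egln1 and Egln3 encode the prolyl hydroxylases PHD2 and PHD3 that mark HIF for breakdown and are themselves known HIF targets. Against day 0 they moved in opposite directions. Egln1 was measured at 74.2, 78.6 and 64.4 CPM at day 0 and at 75.5, 74.0 and 74.0 CPM at day 2. Egln1 then stood at 110.4, 114 and 117 CPM at day 4 and at 141, 133 and 138 CPM at day 6. Days 0 and 2 overlap and both later days lie higher, with a log2 fold change of 0.65 ± 0.056 (SE, edgeR adjusted p = 3.19e-13) at day 4 and 0.93 ± 0.055 (SE, edgeR adjusted p = 2.91e-18) at day 6. Egln3 was measured at 43.4, 44.0 and 39.5 CPM at day 0 and at 23.9, 22.9 and 20.4 CPM at day 2. Egln3 then stood at 22.1, 22.1 and 22.1 CPM at day 4 and at 27.6, 25.9 and 29.0 CPM at day 6. Egln3 was below day 0 in all 9 later libraries, with a log2 fold change of -0.91 ± 0.075 (SE, edgeR adjusted p = 1.29e-13) at day 2 and -0.62 ± 0.075 (SE, edgeR adjusted p = 1.54e-09) at day 6. Expressed as a log2 ratio, Egln3 to Egln1 was -0.77 ± 0.066 at day 0, -1.74 ± 0.11 at day 2, -2.36 ± 0.040 at day 4 and -2.32 ± 0.059 at day 6 (adjusted p = 0.000312, exact permutation test), with days 4 and 6 overlapping. Per kb, Egln3 went from 29.2% ± 0.340 to 14.1% ± 0.488 of the 3 Egln transcripts, and Egln1 from 36.9% ± 1.75 to 52.3% ± 1.91.

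P4ha1 and P4ha2 encode catalytic subunits of the collagen prolyl 4-hydroxylase, which stabilises the collagen helix, and they had the largest rises of the 35 genes at day 6. P4ha1 was measured at 113, 114 and 114 CPM at day 0 and at 101, 100.2 and 102 CPM at day 2. P4ha1 then stood at 223, 234 and 237 CPM at day 4 and at 370.3, 391 and 384 CPM at day 6. P4ha1 (chr10:59323296-59373304) was slightly below day 0 at day 2 (-0.17 ± 0.047, edgeR adjusted p = 0.00188, a call lost in 2 of 22 alternatives) and then climbed without overlap between days. It was 3.36-fold higher at day 6, a log2 fold change of 1.75 ± 0.045 (SE, edgeR adjusted p = 3.36e-30). P4ha2 was measured at 40.3, 35.1 and 37.7 CPM at day 0 and at 63.4, 55.1 and 62.6 CPM at day 2. P4ha2 then stood at 119, 117 and 114 CPM at day 4 and at 135, 141 and 132 CPM at day 6. P4ha2 (chr11:54100095-54131665) rose at every step, and its log2 fold change was 0.68 ± 0.065 (SE, edgeR adjusted p = 7.59e-12) at day 2, 1.63 ± 0.062 (SE, edgeR adjusted p = 2.48e-24) at day 4 and 1.85 ± 0.060 (SE, edgeR adjusted p = 1.32e-26) at day 6. The log2 ratio of P4ha2 to P4ha1 was highest at day 2 (-0.75 ± 0.10) and at day 6 (-1.49 ± 0.049) overlapped day 0 (-1.59 ± 0.11), with an adjusted p over the days of 0.000195 (exact permutation test).

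Both genes are also expressed in collagen-making cells, and per the labels the ES cells were typically grown with feeder fibroblasts. The 10 fibroblast markers (Col1a1, Col1a2, Col3a1, Thy1, Postn, Dcn, Lum, Fap, Pdgfrb and Twist2) summed to 27.9 to 31.8 CPM at day 0, 24.5 to 26.6 CPM at day 2, 38.1 to 42.9 CPM at day 4 and 174 to 192 CPM at day 6, with Fap and Lum at 0 at day 0 and Dcn at 0 at day 2. Single markers differed in course. Col1a2 was at 1.88 ± 0.208 CPM at day 0, 12.9 ± 1.34 CPM at day 2, 14.8 ± 0.390 CPM at day 4 and 49.8 ± 1.61 CPM at day 6. Col3a1 was at 0.624 ± 0.168 CPM at day 0, 0.348 ± 0.153 CPM at day 2, 8.98 ± 0.156 CPM at day 4 and 79.5 ± 5.98 CPM at day 6. Thy1 was at 11.6 ± 0.515 CPM at day 0, 1.58 ± 0.588 CPM at day 2, 0.814 ± 0.215 CPM at day 4 and 0.555 ± 0.0387 CPM at day 6. Twist2 went from 0.0422 ± 0.0731 CPM at day 0 to 3.03 ± 0.382 CPM at day 4. The 6 markers of extraembryonic endoderm, a cell type known for basement membrane collagen, summed to 93.5 to 98.1 CPM at day 0, 479.8 to 493 CPM at day 2, 688 to 703 CPM at day 4 and 566 to 583 CPM at day 6. Most of this sum was Dab2, with 14920 unscaled counts at day 4 and 11720 at day 6. The other markers had more unscaled counts at day 6 than at day 4, Sox17 with 1612 against 994 and Foxa2 with 984 against 626. Afp went from 280 to 518, Gata4 from 655 to 1142 and Gata6 from 1947 to 2561. These are sums over the 3 libraries of a day without correction for depth. Libraries held 6945900 to 10160416 counts at day 4 and 9165606 to 13266962 at day 6, so depth is part of these differences. The 6 markers of endothelium and blood summed to 239 to 254 CPM at day 0, 162 to 166 CPM at day 2, 98.7 to 102 CPM at day 4 and 84.7 to 85.8 CPM at day 6, with Ptprc and Hbb-bh1 at 0 at every day. Most of this sum was Pecam1, which ES cells also express, at 241 ± 6.35 CPM at day 0 and 53.8 ± 1.09 CPM at day 6. Kdr went from 2.84 ± 0.765 CPM to 21.5 ± 0.466 CPM and Cdh5 from 1.26 ± 0.763 CPM to 9.24 ± 0.659 CPM. The part of these cell types in the rise of P4ha1 and P4ha2 was not tested.

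The other targets mostly dipped at day 2 and rose after it, Ndrg1 being higher from day 2 on. Ndrg1, a stress response gene induced by low oxygen and by differentiation, was at 8.70 ± 0.883 CPM at day 0, 17.2 ± 1.13 CPM at day 2, 28.9 ± 2.30 CPM at day 4 and 24.3 ± 1.43 CPM at day 6. Its log2 fold change was 0.98 ± 0.11 (SE, edgeR adjusted p = 8.2e-10) at day 2, 1.74 ± 0.11 (SE, edgeR adjusted p = 1.27e-17) at day 4 and 1.49 ± 0.11 (SE, edgeR adjusted p = 1.69e-15) at day 6. Bnip3, a mitophagy receptor, was at 38.9 ± 0.413 CPM at day 0, 31.7 ± 0.730 CPM at day 2, 49.3 ± 4.96 CPM at day 4 and 52.2 ± 3.64 CPM at day 6. It was below day 0 at day 2 (-0.30 ± 0.074, edgeR adjusted p = 0.000565) and above it at day 6 (0.43 ± 0.070, edgeR adjusted p = 9.23e-07). Vegfa, the vascular growth factor, was at 102 ± 1.84 CPM at day 0, 67.5 ± 3.38 CPM at day 2, 76.6 ± 4.77 CPM at day 4 and 115 ± 3.99 CPM at day 6. It too was lower at day 2 (-0.59 ± 0.053, edgeR adjusted p = 1.56e-12) and day 4 (-0.41 ± 0.054, edgeR adjusted p = 1.62e-08) and higher at day 6 (0.19 ± 0.051, edgeR adjusted p = 0.00132). Ero1l, an oxidase of the endoplasmic reticulum, was at 29.1 ± 2.92 CPM at day 0, 17.7 ± 2.02 CPM at day 2, 19.9 ± 0.855 CPM at day 4 and 26.1 ± 2.33 CPM at day 6. It was lower at day 2 (-0.72 ± 0.093, edgeR adjusted p = 1.23e-08) and not called at day 6 (-0.16 ± 0.089, edgeR adjusted p = 0.109), where its libraries overlap those of day 0.

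Ankrd37, an ankyrin repeat gene used as a hypoxia marker, was also lower at day 2 and was still below day 0 at day 6. It was at 12.9 ± 2.92 CPM at day 0, 4.13 ± 0.388 CPM at day 2, 4.93 ± 0.465 CPM at day 4 and 4.66 ± 1.10 CPM at day 6, with log2 fold changes of -1.64 ± 0.16 (SE, edgeR adjusted p = 3.01e-11) at day 2 and -1.51 ± 0.17 (SE, edgeR adjusted p = 1.99e-10) at day 6. Of its exon length 26.4% overlaps exons of other genes, and for Bnip3 22.3%, so that part of their counts cannot be assigned with certainty where the strand is not known to have been used.

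Lists of neighbouring pathways hold genes that were not among the 35 and are described by their counts, beside the shares of all tested genes given above (39.4% higher and 37.5% lower at day 6). Of 18 genes of the tricarboxylic acid cycle, which oxidises acetyl-CoA in mitochondria, 3 were higher and 12 lower at day 6 than at day 0, with a median log2 fold change of -0.22. Idh3a was the lowest of the 4 named by the smallest p, at -1.39 ± 0.051 (SE, edgeR adjusted p = 8.25e-25), Sdhb was at -0.60 ± 0.047, Mdh2 at -0.61 ± 0.048 and Sdhd at 0.75 ± 0.059. Of these 18 genes 1 was lower by at least 2-fold at day 6, against 9 of the 18 glycolytic enzymes. Of 13 genes for pyruvate entry into mitochondria, 5 were higher and 6 lower, with a median of -0.05. The kinase Pdk2 was higher (1.88 ± 0.11, edgeR adjusted p = 5.48e-19), Pdk4 was lower (-1.52 ± 0.11, edgeR adjusted p = 4.61e-15), as was the phosphatase Pdp2 (-1.54 ± 0.10, edgeR adjusted p = 2.48e-16), and Pdha1, a subunit of the dehydrogenase, was at -0.05 ± 0.043 (SE, edgeR adjusted p = 0.255) and not called.

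The pentose phosphate pathway, which branches off at glucose 6-phosphate, had 6 of 12 genes higher and 5 lower at day 6, with a median of -0.0021. Prps1, which makes the nucleotide precursor PRPP, fell by 1.93 on the log2 scale (edgeR adjusted p = 8.57e-27), and the transketolase Tkt had a log2 fold change of -0.88 ± 0.046 (SE, edgeR adjusted p = 6.34e-20). Tktl2, a transketolase-like gene, was higher by 2.25 ± 0.12 (SE, edgeR adjusted p = 4.75e-20), and H6pd, the enzyme of the endoplasmic reticulum, by 1.25 ± 0.073 (SE, edgeR adjusted p = 1.74e-18). Of 16 tested genes of gluconeogenesis and glycogen, 8 were higher and 5 lower, with a median of 0.14. Fbp2, which reverses the phosphofructokinase step, was at 22.3 ± 0.477 CPM at day 0, 88.5 ± 6.995 CPM at day 2, 73.0 ± 2.27 CPM at day 4 and 41.9 ± 4.10 CPM at day 6, with its peak at day 2 (1.99 ± 0.074, edgeR adjusted p = 1.7e-24). Gbe1, the glycogen branching enzyme, rose by 2.52 ± 0.19 (SE, edgeR adjusted p = 9.81e-15) at day 6 from 1.75 ± 0.436 CPM. Pcx, pyruvate carboxylase, was lower by day 6 (-1.38 ± 0.093, edgeR adjusted p = 1.78e-16), as was Pck2 (-1.03 ± 0.11, edgeR adjusted p = 9.98e-11).

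Of the other glycolytic isoforms and regulators 22 of 29 were tested, with 7 higher and 8 lower at day 6 and a median of -0.26. Hkdc1 and Bsg, described above, were among those higher, and Tigar, which lowers fructose 2,6-bisphosphate, was lower (-1.32 ± 0.070, edgeR adjusted p = 9.82e-20), as was Eno1b (-1.56 ± 0.066, edgeR adjusted p = 5.16e-18). Of 14 tested genes of HIF subunits and their control, 9 were higher and 2 lower at day 6, with a median of 0.41. Epas1, which encodes HIF-2α, fell at day 2 (-1.50 ± 0.068, edgeR adjusted p = 1.56e-21), was not called at day 4 (0.02 ± 0.061, edgeR adjusted p = 0.773) and was higher at day 6 (0.76 ± 0.057, edgeR adjusted p = 5.98e-15). Os9, which binds HIF-1α and the prolyl hydroxylases, was higher at day 6 (1.29 ± 0.068, edgeR adjusted p = 7.51e-15) and Elob, of the VHL ubiquitin ligase, was lower (-0.55 ± 0.052, edgeR adjusted p = 4.1e-12). Cul2, the cullin of that ligase, was higher at day 2 (0.58 ± 0.049, edgeR adjusted p = 2.24e-13) and not called at day 6 (-0.09 ± 0.052, edgeR adjusted p = 0.108).

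A longer list of 41 other hypoxia-inducible genes, of which 39 were tested, held 11 higher and 16 lower at day 2, 14 higher and 15 lower at day 4, and 17 higher and 18 lower at day 6. Its median log2 fold change was -0.06, -0.04 and -0.04, near that of all tested genes, and below the medians of the 10 hypoxia genes at days 4 and 6. Among its genes with the smallest p, the transcription factor Bhlhe40 was higher at day 6 by 1.90 ± 0.063 (SE, edgeR adjusted p = 2.04e-26) and Zfp395 by 1.93 ± 0.085 (SE, edgeR adjusted p = 2.43e-22). The collagen-modifying enzymes Loxl2 (2.82 ± 0.12, edgeR adjusted p = 9.29e-23) and Plod2 (0.62 ± 0.043, edgeR adjusted p = 5.96e-16) were higher at day 6 as well. Plod2 hydroxylates collagen lysines, and like P4ha1 it was below day 0 at day 2 (-0.63 ± 0.045, edgeR adjusted p = 1.89e-15) before it rose.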

How the data were processed

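The 12 RNA-seq libraries came from mouse ES cells and were grouped by the labelled day (0, 2, 4 or 6), with 3 per day. The authors deposited raw read counts per gene, which were whole numbers. Per the submitters' processing notes, featureCounts 2.0.1, HISAT2 2.1.0 and FastQC 0.11.7 were used, together with the mm10 genome and DESeq2, whose version is not named. Strandedness, annotation release and the treatment of reads with several positions are not given in the sources used here. GENCODE release M21, which held 55154 of the 55335 gene IDs, gave coordinates and exon lengths. The exon length of a gene was that of all its annotated exons merged, so levels and shares per kb depend on the annotation.

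The tests across genes used edgeR 4.0.16 and limma 3.58.1 in R 4.3.3. Of the rows, 16468 passed filterByExpr by day, libraries were scaled by TMM, and a robust quasi-likelihood fit with 1 mean for each day took in all 12 libraries. Tests were two-sided and adjusted by Benjamini-Hochberg over all tested genes, and an adjusted p under 0.05 counted as called. For 12 paralog pairs the log2 ratio of counts (0.5 added to each) was compared over days with an exact permutation test of the sum of squares between days, adjusted over the 12 pairs. Totals of 6945900 to 13266962 counts per library set the precision. Promoters of 33 of 35 symbols came from RefSeq (GRCm38.p6), with Ero1l under its newer symbol Ero1a. Shares within a gene family were taken over the genes named with them, and some family members are not reported here. Both procedures were tested on simulated data. Python 3.11.15 and matplotlib 3.10.9 drew the figures.

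The members and gene lists were chosen with earlier results of these data known. Values in every library are given for genes of a paralog pair and for the 3 genes of each list with the smallest F-test p over days. Of each other list up to 4 genes with the smallest F-test p are named. Alternatives were other scalings, filters, tests (DESeq2 1.42.0, limma-voom), a fit to the 6 libraries compared, a replicate block, adjusted p under 0.01, a prior count of 2 in the ratios and each library left out in turn. After seeing the data, a run without Gm42418 and mitochondrially encoded genes and a run with Eno1 and Eno1b summed were added. Protein sequences were not used here.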

Additional observations from a re-analysis of the deposited data

How the results depend on the processing

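Across 22 alternatives and 5 comparisons, the fold changes of the 35 genes kept their side of the threshold in 3767 of 3850 values. A call was lost in 65 values and gained in 16, and a called change reversed in 2. Direction was compared only where a change was called, so changes of sign among uncalled values are not counted. Both reversals of called changes arose with libraries scaled by size alone. That scaling shifted the median of all tested genes against day 0 by 0.10 to 0.13. Slc2a3 at day 2 moved to 0.00059 and Pfkl at day 6 to 0.011, on the log2 scale. The number of the 35 genes called ran from 31 to 34 at day 2, 33 to 35 at day 4 and 30 to 32 at day 6 against day 0, and from 21 to 24 in both later intervals. Calls with adjusted p near 0.05 were the ones lost most: Pfkl at day 6 in 13 alternatives, Tpi1 at day 6 in 12, Aldoa from day 4 to day 6 in 12, Gpi1 from day 2 to day 4 in 10 and Hk2 in that interval in 7. Leaving out 1 library ended the calls from day 4 to day 6 of Ldhb (-0.15 without day 6 replicate 1), Pgam1 (-0.12 without day 4 replicate 1) and Ndrg1 (-0.20 without day 4 replicate 1, -0.22 without day 6 replicate 3); DESeq2 also ended that of Ndrg1 (-0.26). Ero1l was called lower at day 6 without day 0 replicate 1 (-0.23) or day 6 replicate 3 (-0.22).

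The 12 paralog ratios differed over days in every alternative run, with adjusted p of at most 0.00521 (exact permutation tests). The change of the Slc2a3 to Slc2a1 ratio from day 0 to day 6, 0.0047, was -0.0017 without day 0 replicate 2 and ran from -0.0017 to 0.011 over the 12 left-out libraries. The cause was not tested.

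No pairing by replicate number was seen: deviations of same-numbered libraries correlated at -0.038 to 0.034, with 0 of 18 pairs over 0.1. Libraries with different numbers correlated at -0.032 to 0.034. A weak shared effect could be missed, since all tested genes were weighed alike. With the replicate block, 34, 34 and 30 of the 35 genes were called at days 2, 4 and 6 against day 0 and 23 in each later interval, against 34, 34, 32, 23 and 23 without it, and Tpi1 and Pfkl at day 6 were the 2 calls lost. Depth limits Ankrd37, Ndrg1 and Pfkfb3, which are among the genes with the lowest levels.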
